A study of Homo sapiens with 6 samples.

Results

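The interleukins and colony-stimulating factors examined here are 10 secreted cytokine genes picked by symbol, namely IL1A, IL1B, IL6, IL11, IL18, LIF, CSF1, CSF2, CSF3 and TNF. All 10 were found among the 64253 genes of the count tables, and 8 of them had enough reads to be tested. They were followed in PC-3, an established human prostate cancer cell line. There were 3 samples of cells carrying a lentiviral shRNA against CdGAP (shCdGAP) and 3 samples of cells carrying a control shRNA (shCon). CdGAP is a GTPase-activating protein for Rac1 and Cdc42 and is encoded by ARHGAP31. The comparison asks how the RNA of these cytokine genes differed when CdGAP was depleted. Per the methods, PC-3 cells infected with the CdGAP shRNA were selected in puromycin and grown out as single-cell clones. The methods also describe PC-3 cells made to express luciferase, and do not say whether the sequenced cells carried it, nor which clone was sequenced. Cloning is not stated for the control cells, so a difference between clones and the depletion of CdGAP cannot be told apart. The samples are called independent in the methods. The p-values of the main test measure the spread between these samples, without pairing them by replicate number.

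The set covers several cytokine families. IL-1 alpha and IL-1 beta act through the receptor IL1R1 with its partner IL1RAP, and IL-18 through a related receptor pair. IL-1 beta and IL-18 are made as precursors that caspase-1 cleaves in inflammasomes, while the IL-1 alpha precursor is already active. IL-6, IL-11 and LIF share the signalling chain gp130, encoded by IL6ST. CSF1, CSF2 and CSF3 direct macrophages, granulocytes with macrophages, and neutrophils. Many of these mRNAs are short-lived because their tails carry AU-rich elements, and many of the genes are switched on by NF-kappaB.

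ARHGAP31 had 26.4, 27.1 and 26.9 CPM in shCdGAP replicates 1, 2 and 3, and 58.9, 60.6 and 58.2 CPM in the shCon replicates. Its log2 fold change was -1.14 (SE 0.0409, adjusted p = 8.75e-08). Here CPM are counts scaled to the TMM-adjusted library size, fold changes are shCdGAP over shCon, and p-values come from edgeR's quasi-likelihood test adjusted over 16439 genes. A gene is said to have risen or fallen when the adjusted p was under 0.01, and is called higher or lower when the absolute log2 fold change was also above 1. Library totals ran from 33182796 to 43154039 read pairs counted in genes, and the reads given for a gene are such pairs. The epithelial markers KRT8, KRT18 and EPCAM summed to 646 to 725 CPM in shCdGAP and 516 to 529 in shCon libraries. EPCAM was called higher, and KRT8 and KRT18 were not called. All 4 androgen-responsive markers held at most 5 reads in each library. Of 8 immune markers, 5 held at most 5 reads in each library, 3 of these no read at all. Of the rest, CD68 was called higher (mean of 0.418 CPM in shCon and 1.23 in shCdGAP) and LYZ lower (0.595 and 0.0655 CPM). LYZ had enough reads to be tested through the shCon group alone. The whole list summed to 1.54 to 1.70 CPM in shCdGAP and 1.00 to 1.35 in shCon libraries. The 4 fibroblast markers summed to 58.5 to 62.7 CPM in shCdGAP and 17.7 to 19.2 in shCon libraries. Of these 4, 3 were tested and called higher, against 8.56% of all tested genes, with PDGFRB testable through the shCdGAP group alone. The part of the immune or the fibroblast list in the results was not tested. The 3 endothelial markers summed to 2.44 to 6.06 CPM in shCdGAP and 5.69 to 5.84 in shCon libraries. Replicate 2 of shCdGAP stood apart for some genes. Of 13587 tested genes whose average log2 CPM was 0 or more, 150 (1.10%) were at least 2 times as high in it as in the mean of the other shCdGAP libraries, and 41 (0.302%) were lower than that mean by at least the same factor. For genes that it moves most, values without it are given. Because it is left out for standing apart, adjusted p-values without it can be far smaller and are no separate support. That of CSF3 was 1.78e-05 with all libraries and 4.58e-16 without it. In bulk RNA, fewer cells with a transcript and less transcript per cell cannot be told apart.

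The 250 bases upstream of the start site are shown for IL1A, IL1B, IL11 and CSF2, because they let the promoters of a neighbouring pair that differed between libraries be read beside those of the other tested genes that matched. They come from RefSeq on GRCh38.p14, where 6 of the 10 genes matched, and IL18, LIF, CSF1 and CSF3 did not. The windows are chr2:112784494-112784743 on the minus strand, chr2:112836780-112837029 on the minus strand, chr19:55370464-55370713 on the minus strand and chr5:132073539-132073788 on the plus strand. Each runs 5′ to 3′ toward the gene, and capitals mark matches to the motifs searched.
IL1A: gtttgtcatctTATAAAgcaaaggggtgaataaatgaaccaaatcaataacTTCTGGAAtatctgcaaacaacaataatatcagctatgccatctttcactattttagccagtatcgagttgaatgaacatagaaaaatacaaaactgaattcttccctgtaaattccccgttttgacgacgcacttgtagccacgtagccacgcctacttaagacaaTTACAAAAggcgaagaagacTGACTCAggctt
IL1B: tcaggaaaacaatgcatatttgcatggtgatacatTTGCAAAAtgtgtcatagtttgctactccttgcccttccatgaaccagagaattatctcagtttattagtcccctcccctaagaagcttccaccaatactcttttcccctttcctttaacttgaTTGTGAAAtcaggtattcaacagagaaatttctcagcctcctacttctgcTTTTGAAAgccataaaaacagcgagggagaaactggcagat
IL11: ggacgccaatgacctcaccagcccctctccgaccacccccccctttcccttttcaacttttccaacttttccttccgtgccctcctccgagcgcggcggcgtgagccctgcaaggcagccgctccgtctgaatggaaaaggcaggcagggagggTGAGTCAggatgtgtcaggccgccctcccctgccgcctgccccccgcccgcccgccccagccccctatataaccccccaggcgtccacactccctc
CSF2: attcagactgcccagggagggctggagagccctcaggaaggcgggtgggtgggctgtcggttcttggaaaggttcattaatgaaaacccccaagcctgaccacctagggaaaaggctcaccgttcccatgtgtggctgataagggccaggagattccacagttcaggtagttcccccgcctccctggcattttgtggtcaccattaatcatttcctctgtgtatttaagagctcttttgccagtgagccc
The motifs were AP-1 (TGANTCA), C/EBP (TTNNGNAA), the TATA box (TATAAA) and the NF-kappaB consensus, each on both strands, and no matches overlapped. IL1A held an AP-1 match from -12 to -6 and IL11 one from -96 to -90, with positions counted from the start site. AP-1 matches occur in 6.57% of 35116 such windows. IL1A also held 2 C/EBP matches and the letters TATAAA from -239 to -234, and IL1B held 3 C/EBP matches. C/EBP matches occur in 33.2% of windows and TATAAA in 10.7%. CSF2 held none of these letters. Of the 6 windows, 1 held the NF-kappaB consensus, that of IL6 from -73 to -64, against 6.88% of all windows. TNF held a C/EBP match and a TATA box from -29 to -24. A match describes letters, not a bound site.

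CSF1 and IL1A were called higher in shCdGAP cells, 2 of the 8 cytokine genes tested, where 8.56% of all tested genes were called higher. None was called lower, against 4.19% of all tested genes. One gene, CSF3, had an unadjusted p under 0.05 and a lower level, and DESeq2 also called none lower. Without the limit on fold change, IL1A, IL18, LIF, CSF1 and CSF2 rose, 5 of 8 against 24.1% of all genes. With any 1 shCon library left out this count was 2, CSF1 and CSF2, and with 1 shCdGAP library left out it was 3 to 6. CSF3 fell, 1 of 8 against 22.0%. The 2 groups of libraries did not overlap for 6 of the 8, where 67.1% of all tested genes had groups that did not overlap. The median log2 fold change of the 8 was 0.63, against 0.01 over all tested genes. Each of the 8 had at least 16 reads in every library, so none passed the filter through one group alone.

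**Figure D1:**
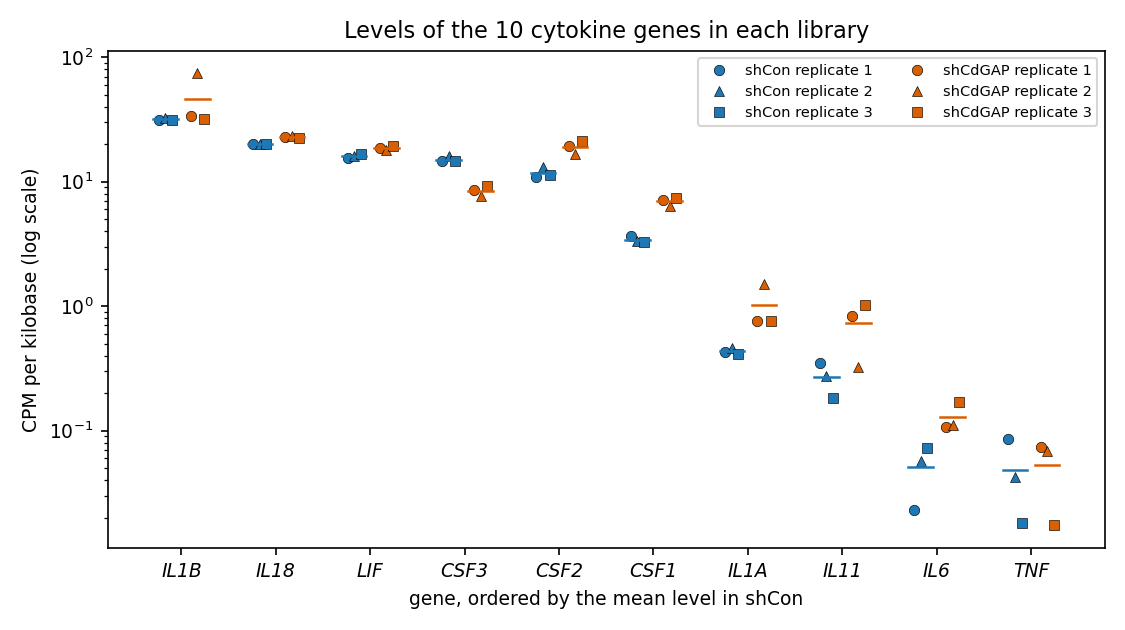
CPM per kilobase of counted exon (log axis) of each cytokine gene, ordered by its mean in shCon, with 1 point per library, colours for the groups, symbols for the replicates and lines at the group means. The CSF3 points of shCdGAP lie below those of shCon, CSF1 and CSF2 lie above, and IL1B has a single high point, shCdGAP replicate 2.

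IL1A (ENSG00000115008, chromosome 2 from 112773915 to 112784590) held 66, 140 and 56 reads in replicates 1, 2 and 3 of shCdGAP against 38, 41 and 29 in shCon. As CPM these were 1.63, 3.21 and 1.63 against 0.906, 0.971 and 0.878. Every shCdGAP library lay above every shCon library, and replicate 2 was 1.97 times the mean of the other shCdGAP libraries. The means were 2.16 ± 0.916 and 0.918 ± 0.0481 CPM (SD, n = 3 each). The log2 fold change was 1.24 (SE 0.295, adjusted p = 0.00616). The call depended on single libraries. Without shCdGAP replicate 2 the log2 fold change was 0.81 (adjusted p = 0.000749), which is under the fold limit, and with any 1 shCon replicate left out the adjusted p lay between 0.0231 and 0.0265.

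IL1B (ENSG00000125538, chromosome 2 from 112829751 to 112836903), the gene for the secreted pyrogen IL-1 beta, did not pass the test. Its levels were 104, 230.1 and 98.5 CPM in the shCdGAP libraries and 97.8, 99.9 and 96.7 CPM in the shCon libraries. Replicate 2 stood at 2.27 times the mean of the other shCdGAP libraries, while replicate 3 of shCdGAP lay within the shCon range. The log2 fold change was 0.56 (SE 0.373, adjusted p = 0.258), and 0.04 without replicate 2. IL1A and IL1B were thus both highest in the same library, but IL1A was also above the shCon range in the other shCdGAP libraries. The 20 tested genes nearest to each of them had a median log2 fold change of 0.05.

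IL18 (ENSG00000150782, chromosome 11 from 112143251 to 112164117), a cytokine that induces interferon gamma in lymphocytes, rose by a small amount. It had 60.5, 61.4 and 59.2 CPM in shCdGAP and 52.7, 52.9 and 52.8 CPM in shCon libraries. The groups were separate and narrow, and the log2 fold change was 0.19 (SE 0.0368, adjusted p = 0.00173), a level 1.14 times that of shCon. Leaving out single libraries gave adjusted p-values up to 0.0172.

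IL11 (ENSG00000095752, chromosome 19 from 55364389 to 55370463), a gp130 cytokine known in bone and stroma, held 91, 38 and 94 reads in shCdGAP libraries and 39, 31 and 16 in shCon libraries. The values were 2.24, 0.872 and 2.74 CPM against 0.930, 0.735 and 0.484 CPM. Replicate 2 of shCdGAP was 0.350 times the mean of the others and fell inside the shCon range, the opposite of IL1A and IL1B in that library. The log2 fold change of 1.397 (SE 0.440, adjusted p = 0.0263) did not pass 0.01. Without that library it was 1.74 (adjusted p = 1.93e-09), past both limits, but that library is the one that deviates for this gene. Fits that left out any other library gave adjusted p-values from 0.0420 to 0.0803, and none passed 0.01. DESeq2 called IL11 with all libraries at 1.42 (adjusted p = 0.00268).

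LIF (ENSG00000128342, chromosome 22 from 30240447 to 30246851), which signals through LIFR and gp130, was present at higher levels than IL11. It had 73.6, 71.0 and 76.6 CPM in shCdGAP and 62.0, 64.1 and 66.5 CPM in shCon libraries. The groups did not overlap, and the log2 fold change was 0.20 (SE 0.0447, adjusted p = 0.00424), with adjusted p-values up to 0.0402 when single libraries were left out. IL6 (ENSG00000136244, chromosome 7 from 22725884 to 22732002) had 9, 10 and 12 reads against 2, 5 and 5, too few for the main test. Its groups did not overlap (0.267 ± 0.0713 against 0.106 ± 0.0530 CPM, SD, n = 3 each). The two-sided exact permutation p was 0.1, the smallest that 3 against 3 libraries allow. In edgeR without a filter on low counts its log2 fold change was 1.33 (SE 0.532, adjusted p = 0.0375). DESeq2 gave 1.34 with a wider error (SE 0.755, adjusted p = 0.144), and IL6 was called in neither fit.

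The colony-stimulating factors moved in both directions. CSF1 (ENSG00000184371, chromosome 1 from 109910242 to 109930992), the growth factor of the macrophage lineage, held 1581, 1497 and 1369 reads in shCdGAP libraries and 827, 761 and 585 in shCon libraries. These were 39.0, 34.4 and 39.8 CPM against 19.7, 18.03 and 17.7 CPM. Each shCdGAP library stood well above the shCon libraries, and the log2 fold change was 1.03 (SE 0.0712, adjusted p = 3.79e-06), a level 2.04 times that of shCon. When single libraries were left out it ranged from 0.98 to 1.08, and in 4 of 6 fits it fell under the fold limit with an adjusted p of at most 0.000109.

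CSF2 (ENSG00000164400, chromosome 5 from 132073790 to 132076170), or GM-CSF, had 15.4, 13.2 and 16.7 CPM in shCdGAP and 8.58, 10.4 and 8.93 CPM in shCon libraries. It rose without passing the fold limit, with a log2 fold change of 0.69 (SE 0.108, adjusted p = 0.000531). CSF3 (ENSG00000108342, chromosome 17 from 40015361 to 40017813), or G-CSF, had 19.0, 16.9 and 20.4 CPM in shCdGAP and 32.5, 35.6 and 32.3 CPM in shCon libraries. It was the only one of the 8 tested genes that fell, with a log2 fold change of -0.84 (SE 0.0750, adjusted p = 1.78e-05). Its range was -0.91 to -0.78 when single libraries were left out. The 20 tested genes nearest to CSF1, CSF2 and CSF3 had median log2 fold changes of 0.03, 0.29 and -0.16.

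TNF (ENSG00000232810, chromosome 6 from 31575567 to 31578336), an NF-kappaB activating cytokine made largely by macrophages, was near the limit of detection. It had 5, 5 and 1 reads in shCdGAP and 6, 3 and 1 in shCon libraries, or 11 and 10 in sum. No difference was detectable at this depth, and the exact permutation p was 1.0 (two-sided).

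**Figure D2:**
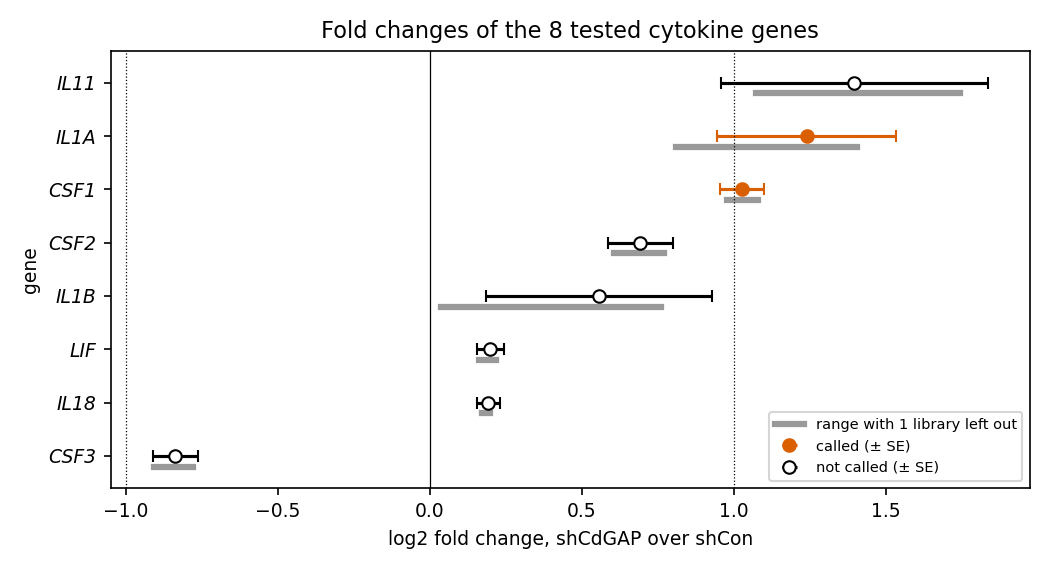
Log2 fold change of shCdGAP over shCon for the 8 tested cytokine genes (points, with bars of 1 standard error), with a grey bar from the lowest to the highest value of the 6 fits that omit 1 library each, filled points for called genes and dotted lines at the fold limits. IL1A, IL1B and IL11 move most between fits, and CSF3 stays between -0.91 and -0.78.

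Levels were ranked between genes per kilobase of counted exon. In shCon cells IL1B was highest at 31.7 ± 0.526 CPM per kilobase (SD, n = 3), followed by IL18 at 20.1, LIF at 16.2, CSF3 at 15.1, CSF2 at 11.8 and CSF1 at 3.41. LIF and CSF3 overlapped. IL1A at 0.432, IL11 at 0.268, IL6 at 0.0511 and TNF at 0.0486 followed, the last pair overlapping. In shCdGAP cells IL1B remained first at 46.6 ± 24.1 and IL18 second at 23.0 CPM per kilobase. CSF2 at 19.2 and LIF at 18.6 came next and overlapped, and CSF3 at 8.46 lay above CSF1 at 6.96. IL1A at 1.02 and IL11 at 0.730 overlapped, above IL6 at 0.129 and TNF at 0.0531. CSF2 thus ranked below CSF3 in shCon cells and above it in shCdGAP cells. IL1B made up 29.9%, 50.1% and 28.1% of the summed level of the 10 genes in the shCdGAP libraries and 31.6% to 32.5% in the shCon libraries. CSF3 made up 5.14% to 8.09% in shCdGAP and 14.9% to 15.7% in shCon libraries.

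Receptors were described from a list of 14 genes, of which 9 were tested, and their median log2 fold change was -0.12. Of the 9, 1 was called higher and 1 lower, against 8.56% and 4.19% of all tested genes. IL1R1, the signalling receptor of IL-1, had 1.04, 1.56 and 0.873 CPM in shCdGAP and 0.477, 0.261 and 0.363 CPM in shCon libraries. It was called higher at a log2 fold change of 1.66 (SE 0.312, adjusted p = 0.00160), and its adjusted p without shCon replicate 2 was 0.0103. Its partner IL1RAP fell, from 36.3 ± 0.308 to 24.3 ± 1.71 CPM (log2 fold change -0.58, SE 0.0578, adjusted p = 3.55e-05). IL18R1, the ligand-binding chain for IL-18, had 0.444, 1.65 and 0.756 CPM in shCdGAP against 3.60, 3.36 and 3.51 CPM in shCon libraries. It was called lower at -1.85 (SE 0.363, adjusted p = 0.00291), and in 2 of 6 fits without a single library. The highest of its shCdGAP libraries was replicate 2, and leaving it out gave -2.57. IL18R1 shares exon sequence with IL1RL1 on the same strand, where reads were not counted, so both are uncertain.

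The gp130 chain IL6ST had 271 ± 11.2 CPM in shCdGAP and 294 ± 5.69 CPM in shCon cells (log2 fold change -0.12, adjusted p = 0.0310), and did not pass 0.01. TNFRSF1A, the main TNF receptor, fell from 139 ± 0.778 to 82.9 ± 7.52 CPM (log2 fold change -0.75, SE 0.0598, adjusted p = 8.81e-06). The following were named after their values were seen. LIFR and IL6R had log2 fold changes of -0.22 and 0.19, with adjusted p-values of 0.0744 and 0.0121. Receptors of the colony-stimulating factors were near 0. CSF2RB and CSF3R had no read in any library. Taken alone, 1 library without a read allows up to 3 reads, and no read in every library allows fewer. CSF1R had 0, 1 and 2 reads in shCdGAP and none in shCon libraries, and CSF2RA had 1 read in all.

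**Figure D3:**
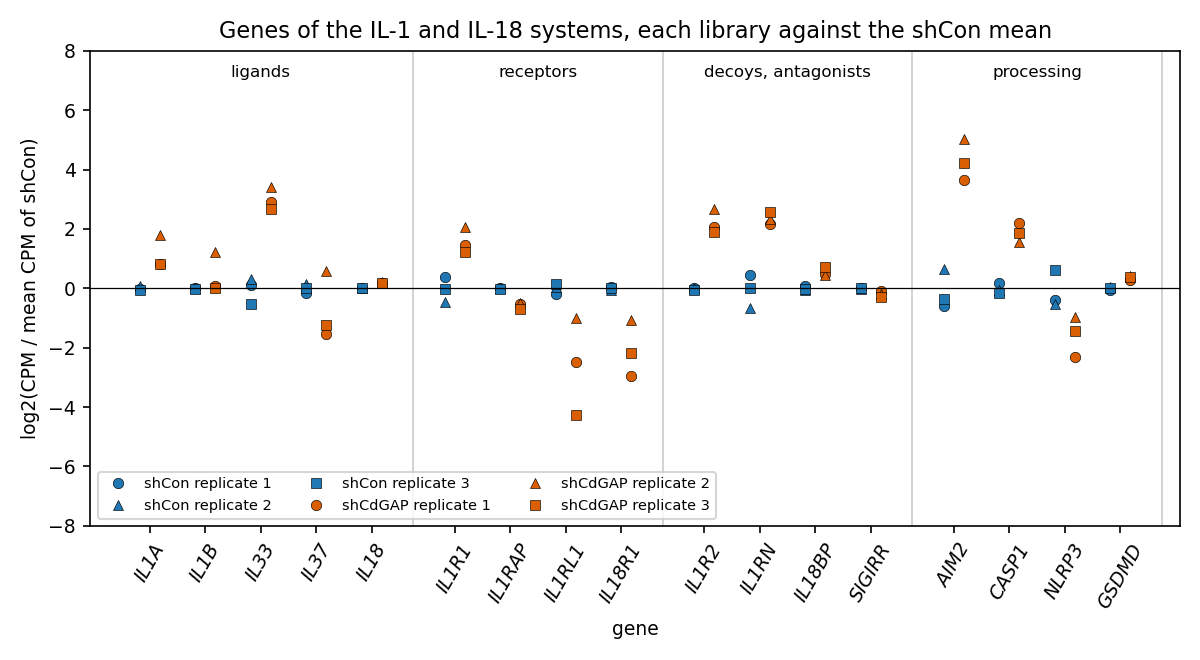
Log2 of the CPM of each library over the mean CPM of shCon, for ligands, receptors, decoys with antagonists, and processing genes of the IL-1 and IL-18 systems, with 1 point per library. IL1A, IL18, IL33, IL1R1, IL1R2, IL1RN, IL18BP, CASP1, AIM2 and GSDMD have all 3 shCdGAP points above all shCon points. IL1RAP, IL1RL1, IL18R1, SIGIRR and NLRP3 have all 3 below, and IL1B and IL37 overlap. Of all tested genes, 67.1% had groups that did not overlap.

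Among 6 antagonists and decoys, 5 were tested, and 2 were called higher and 1 lower, against 8.56% and 4.19% of all tested genes. Their median was 0.55 on the log2 scale. IL1RN encodes the IL-1 receptor antagonist, which blocks IL1R1 without signalling. It had 23, 28 and 26 reads in shCdGAP and 7, 3 and 4 in shCon libraries, and a log2 fold change of 2.42 (SE 0.334, adjusted p = 0.000260). IL1R2, a decoy receptor that binds IL-1 without signalling, had 17, 28 and 13 reads against 4, 4 and 3 (log2 fold change 2.34, SE 0.376, adjusted p = 0.000650). Both passed the filter through the shCdGAP group alone, so their presence among tested genes depended on that group being high. IL1RL1, the IL-33 receptor whose soluble form is a decoy, had 5, 16 and 1 reads against 27, 32 and 27. It was called lower at -1.98 (SE 0.496, adjusted p = 0.00795), but in 1 of 6 fits without a single library, the one that leaves out shCdGAP replicate 2, at -3.16 (adjusted p = 2.01e-07). With the replicate number as a block its adjusted p was 0.0108. IL18BP, which binds IL-18 in solution, rose from 3.77 ± 0.147 to 5.53 ± 0.582 CPM (log2 fold change 0.55, adjusted p = 0.00242), and SIGIRR had 4.33 against 4.92 CPM (adjusted p = 0.148).

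These genes lie in a pair of clusters on chromosome 2. The receptor cluster holds 5 genes between 101991844 and 102452565, and in it IL1R2 and IL1R1 were called higher and IL1RL1 and IL18R1 lower. IL1RL1 and IL18R1 share uncounted exon sequence, and were called in 1 and 2 of 6 fits without a single library. IL1R2, like IL1RN, passed the filter through the shCdGAP group alone. The ligand cluster holds 9 genes between 112773915 and 113134016, and in it IL1A and IL1RN were called higher while IL1B was not called. IL37, an anti-inflammatory member of the cluster named after its values were seen, had 1.65, 7.21 and 2.01 CPM in shCdGAP and 4.34, 5.26 and 4.78 CPM in shCon libraries. It was lower in replicates 1 and 3 and higher in replicate 2. Its log2 fold change was -0.38 (adjusted p = 0.599), and -1.41 without replicate 2.

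Of 13 genes for processing or release of IL-1 family cytokines and TNF, 10 were tested, with a median log2 fold change of -0.10. Among the 10, 2 were called higher and none lower, against 8.56% and 4.19% of all tested genes. CASP1, the protease that matures IL-1 beta and IL-18, had 3.13, 2.00 and 2.44 CPM in shCdGAP and 0.763, 0.640 and 0.605 CPM in shCon libraries. Every shCdGAP library exceeded every shCon library, at 3.77 times the shCon mean (log2 fold change 1.90, SE 0.218, adjusted p = 8.29e-05). AIM2, a DNA sensor that assembles an inflammasome, had 26, 73 and 33 reads against 1, 3 and 1. The ratio of its summed reads per library size was 26.6 (95% exact binomial interval 11.1 to 83.2, counting error only), and its adjusted p was 0.000196. AIM2 too passed the filter through the shCdGAP group alone. The calpains CAPN2 and CAPN1, which cleave the IL-1 alpha precursor in many cells, had adjusted p-values of 0.0521 and 0.1004. The others that changed were named after their values were seen. GSDMD, the pore former through which IL-1 beta leaves cells, rose by 0.36 on the log2 scale (adjusted p = 0.000156). CASP4, an inflammatory caspase, and the sheddases ADAM10 and ADAM17, the latter known for releasing TNF, fell by 0.37, 0.26 and 0.46 on the log2 scale (adjusted p = 0.000470, 0.00145 and 8.65e-05). The list thus held 3 genes that rose and 3 that fell, against 24.1% and 22.0% of all tested genes. The inflammasome sensor NLRP3 had 3, 9 and 5 reads in shCdGAP and 13, 12 and 21 in shCon libraries. Its log2 fold change of -1.45 (adjusted p = 0.0272) did not pass, and leaving out shCdGAP replicate 2 gave -1.86 (adjusted p = 0.00225). NLRP3 passed the filter through the shCon group alone, so its presence among tested genes depended on that group being high.

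Of 46 other interleukin and haematopoietic cytokine genes, 15 were tested, and their median was -0.01 on the log2 scale. Among them 3 were called higher and none lower, against 8.56% and 4.19% of all tested genes. Of these 15, 5 had an unadjusted p under 0.05 and a lower level, and DESeq2 called 1 lower. IL33, an alarmin of the IL-1 family, had 9.15, 12.995 and 7.94 CPM in shCdGAP and 1.31, 1.52 and 0.847 CPM in shCon libraries. This was 8.19 times the shCon mean (log2 fold change 3.01, SE 0.248, adjusted p = 1.93e-05), and the 20 tested genes nearest to it on chromosome 9 had a median of -0.55. IL32, a proinflammatory cytokine, had 67.9, 81.2 and 61.8 CPM against 15.3, 15.5 and 13.5 CPM (log2 fold change 2.25, SE 0.107, adjusted p = 9.97e-07). KITLG, or stem cell factor, had 61.2 ± 7.02 against 28.8 ± 1.16 CPM (log2 fold change 1.09, adjusted p = 7.73e-06). For all 3 the groups were separate, and all 3 were called in each fit without a single library. Groups did not overlap for 9 of the 15 tested genes, against 67.1% of all tested genes. IL15, which sustains natural killer cells, fell from 8.56 ± 0.585 to 4.28 ± 1.54 CPM (log2 fold change -0.99, SE 0.216, adjusted p = 0.00479). It missed the fold limit, but was called with the replicate number as a block (log2 fold change -1.02, adjusted p = 0.00172) and with shCdGAP replicate 2 left out (-1.34, adjusted p = 1.33e-14). CLCF1, a gp130 cytokine, had 13.9 against 12.5 CPM (adjusted p = 0.395).

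The 17 TNF superfamily ligands included 8 tested genes, of which 6 rose and none fell, against 24.1% and 22.0% of all tested genes, and the median was 0.77 on the log2 scale. No tested ligand had an unadjusted p under 0.05 and a lower level, and DESeq2 called none lower. With shCdGAP replicate 2 left out, TNFSF15 was called lower at -1.68 (adjusted p = 7.02e-09), against -0.58 (adjusted p = 0.427) with all libraries. With all libraries, 1 of the 8 was called higher and none lower, against 8.56% and 4.19% of all tested genes. EDA, or ectodysplasin, was the gene called higher, with 4.96, 7.30 and 4.74 CPM in shCdGAP and 0.143, 0.118 and 0.0303 CPM in shCon libraries. Its log2 fold change was 5.76 (SE 0.342, adjusted p = 1.66e-06), and it passed the filter through the shCdGAP group alone. The T-cell costimulators CD70 and TNFSF9 rose from 49.4 ± 1.42 to 79.3 ± 2.35 CPM (adjusted p = 1.77e-06) and from 26.8 ± 0.263 to 48.4 ± 2.29 CPM (adjusted p = 1.11e-06). Both were under the fold limit, at log2 fold changes of 0.68 and 0.86.

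Signal transducers moved both ways. Of 16 genes, 13 were tested, and 4 rose and 4 fell, against 24.1% and 22.0% of all tested genes. Of the 13, 1 was called lower, against 4.19%, and none higher, against 8.56%. JAK2, the kinase bound to gp130 and to the GM-CSF receptor, had 15.2, 13.5 and 14.7 CPM in shCdGAP and 32.0, 31.7 and 30.2 CPM in shCon libraries. It was called lower at -1.11 (SE 0.0595, adjusted p = 7.68e-07) in all 6 fits without a single library, and the 20 tested genes nearest to it had a median of -0.31. MYD88, the adaptor of the IL-1 and IL-18 receptors, fell from 50.1 to 30.7 CPM (log2 fold change -0.71, adjusted p = 9.60e-05). IRAK1, the kinase after MYD88, had an adjusted p of 0.0997, and PTPN11, a phosphatase in gp130 signalling, rose by 0.17 on the log2 scale (adjusted p = 0.00678). STAT3, STAT5A and STAT5B, named after their values were seen, had no read in any library. This allows fewer reads per library than the 3 that hold for 1 library alone.

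Feedback genes also split, with 11 of 11 tested, and 3 risen and 3 fallen, against 24.1% and 22.0% of all tested genes. Of the 11, 1 was called higher, against 8.56%, and none lower, against 4.19%. SOCS1, which inhibits JAK kinases, had 3.90, 4.45 and 3.96 CPM in shCdGAP and 1.93, 1.33 and 1.73 CPM in shCon libraries. It was called higher at 1.31 (SE 0.156, adjusted p = 0.000107). NFKBIA, the inhibitor of NF-kappaB, fell from 347 ± 6.15 to 203 ± 22.9 CPM (log2 fold change -0.78, adjusted p = 4.30e-05), while TNIP1 rose by 0.38 (adjusted p = 0.000102). TNFAIP3 and SOCS3, named after their values were seen, had log2 fold changes of 0.87 and -0.46 with adjusted p-values of 2.50e-06 and 8.42e-05. SOCS1 and SOCS3, which both inhibit cytokine receptor signalling, thus moved in opposite directions. Of the 11 regulators of AU-rich mRNA, 6 fell and none rose, against 22.0% and 24.1% of all tested genes. None was called in either direction by edgeR or DESeq2. At an unadjusted p under 0.05, 2 of the 11 were higher and 7 lower. HNRNPD and KHSRP, proteins that promote decay of AU-rich mRNAs, fell by 0.47 and 0.29 on the log2 scale (adjusted p = 5.94e-06 and 0.000145). ELAVL1, which stabilises such mRNAs, and ZC3H12A, a nuclease that degrades IL6 mRNA, were named after their values were seen. They fell by 0.35 and 0.67 on the log2 scale (adjusted p = 2.00e-05 and 4.53e-06), so the list's fallen genes include both kinds of regulator.

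**Figure D4:**
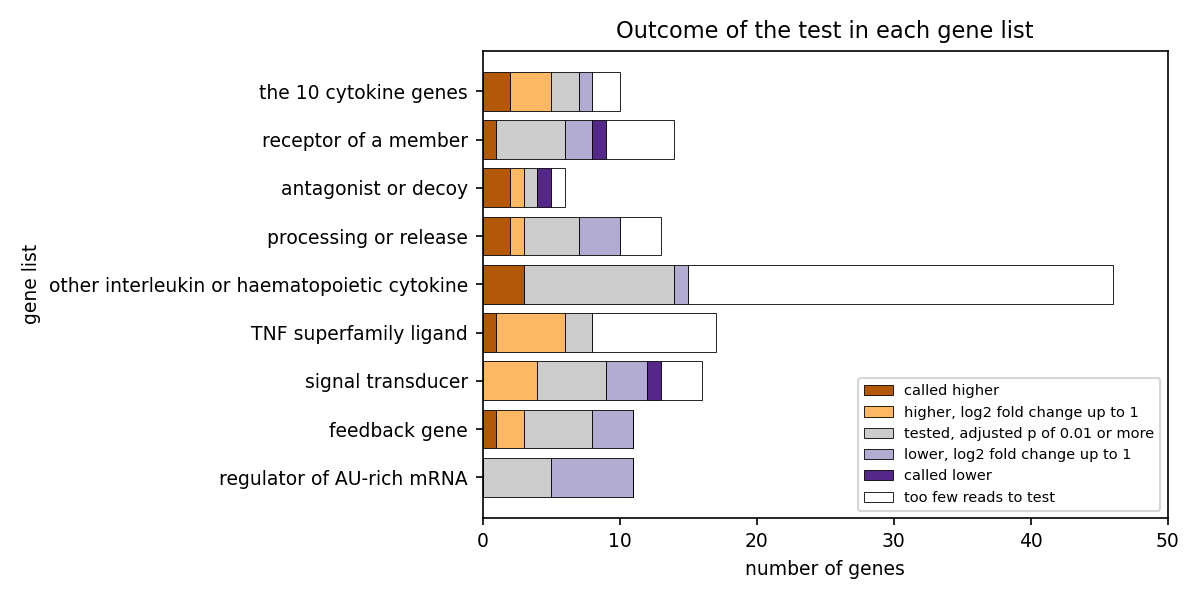
Number of genes in each list that were called, changed within the fold limit, did not pass an adjusted p of 0.01, or had too few reads to test. The lists of TNF superfamily ligands and of AU-rich mRNA regulators have changed genes in a single direction, higher for the former (6 of 8 tested) and lower for the latter (6 of 11). Of all tested genes, 24.1% rose and 22.0% fell.

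Over all these lists, 134 genes were read, 82 were tested, 10 were called higher and 3 lower. The shares of all tested genes were 8.56% and 4.19%, and 4 of the 10 (AIM2, EDA, IL1R2 and IL1RN) passed the filter through the shCdGAP group alone. The median log2 fold change of the 82 was -0.07, and 23 rose while 21 fell, against 24.1% and 22.0% of all tested genes.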

How the data were processed

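RNA from 3 shCdGAP and 3 shCon samples of PC-3 cells was measured. The deposited values are counts per gene without normalization. The authors aligned the reads with STAR 2.5.1b to GRCh38 and counted them with featureCounts, for which the labels name version 1.4.6 and the table headers 1.6.0 with Ensembl release 77. By the headers read pairs were counted by strand, whereas a single-read kit stands in the methods. Reads in exons shared by genes of one strand are left uncounted, which lowers such genes.

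Genes were kept by filterByExpr, scaled by TMM and tested with the robust quasi-likelihood test of edgeR 4.0.16 (limma 3.58.1, R 4.3.3), with Benjamini-Hochberg adjustment over 16439 genes. Tables were prepared in Python 3.11.15. TMM factors lay between 0.987 and 1.01. Intervals cover counting error only. Scripts were tested on simulated counts. Same-numbered samples deviated together weakly over 10207 genes (r = 0.123, 0.119 and 0.119). A replicate block, which pairs the samples by number, was therefore run as an alternative. The main test and its p-values take no account of this pairing. The pairing comes from the data, since the labels state no shared day or batch.

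The cytokine genes and the other lists were chosen with earlier results of these data known. Besides the 10 genes, the text names up to 4 called genes of each list with the largest changes, up to 2 uncalled genes with the highest mean CPM, and receptors, antagonists and transducers that bind a called cytokine. For IL1B, the cytokine gene with the highest mean CPM, it names the 3 nearest profiles among genes whose average log2 CPM was 3 or more. Alternatives were DESeq2 1.42.0, other scaling, other filters, other thresholds, a replicate block and each library left out. Promoter sequences were read from RefSeq.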

Additional observations from a re-analysis of the deposited data

How the results depend on the processing

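The numbers of cytokine genes called higher (2) and lower (0) were 2 or 3 and 0 under upper-quartile and library-size scaling, no filter, at least 10 reads in every library, DESeq2 and an adjusted p under 0.05. Under edgeR's glmTreat, which tests against a fold limit of 1 on the log2 scale, 0 were called higher, and 0 had an unadjusted p under 0.05 in that test. DESeq2 called 3 higher. Without single libraries 0 to 2 were called higher. For the other lists, glmTreat called 6 higher and 0 lower (3 lower at an unadjusted p under 0.05), against 10 and 3 in the main comparison. A minimum of 10 reads in every library left 6 higher, by construction removing genes near 0 in one group. An adjusted p under 0.05 gave 5 lower, and leaving out single libraries gave 1 to 7 lower, the 7 without shCdGAP replicate 2. With the replicate block, which pairs the samples by number, 2 cytokine genes and 10 other genes were called higher, 0 and 3 lower. IL15 was then called in place of IL1RL1, and no other call changed. Over all genes, glmTreat called 658 higher and 340 lower against 1407 and 689. For the 8 tested cytokine genes and the 13 other called genes, the call was unchanged in 257 values, lost in 28 and gained in 4, all 4 of IL11, and none changed sign. These counts leave out uncalled genes such as IL15, and the adjusted p alone, by which 2 to 6 cytokine genes rose and 1 fell without single libraries. Depth limits IL6 and TNF, which had at most 12 reads per library.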

Other observations

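The genes nearest to IL1B in profile over the 6 libraries, among 10251 genes, were NEO1, CEMIP and RTN4RL2, at distances of 0.141, 0.151 and 0.210 between centred log2 CPM values. NEO1, a receptor of netrins, had 22.5 CPM in shCdGAP replicate 2 and 8.70 to 9.08 CPM elsewhere. CEMIP, which takes part in hyaluronan breakdown, had 18.7 CPM there and 7.80 to 8.73 CPM elsewhere. RTN4RL2, a Nogo receptor homologue, had 21.1 CPM there and 7.48 to 8.71 CPM elsewhere. TNFSF15, named after its values were seen, had 0.814, 3.77 and 0.989 CPM in the shCdGAP libraries and 3.55, 2.54 and 2.39 CPM in the shCon libraries.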
